A study of Drosophila melanogaster with 30 samples.

Results

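A set of 8 genes that encode alcohol, aldehyde or carbonyl dehydrogenases or reductases was followed in RNA-seq counts from heads of *Drosophila melanogaster*: *Adh*, *Adhr*, *Fdh*, *Aldh*, *sni*, *Pdh*, *CG31809* and *CG31810*. They were chosen by symbol, as 8 of the 17471 genes listed in the count tables, because enzymes of these kinds could act on ketone odorants. *CG31809* was selected on measured values, since it had differed in all 3 comparisons of the butanedione regime, so its values there are given as a description without a test. The libraries came from whole heads of female flies aged 3 to 7 days, 2 independent pools of heads per line. The lines had been selected in a T-maze for 30 generations from an outbred intercross population founded on lines of the Drosophila Genetic Reference Panel. BUT+ and BUT- lines were selected for attraction to and repulsion from 2,3-butanedione, and CYC+ and CYC- lines for attraction to and repulsion from cyclohexanone. Control lines went through the same maze with no odorant on either side and were propagated from flies of a randomly taken side. Each of the 5 treatments had 3 replicate lines and 6 libraries, 30 libraries in all. The heads were collected after selection, and the label of a sample gives the regime under which its line was bred, not an odorant given to the flies before RNA was taken.

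Alcohol dehydrogenases move electrons between an alcohol and the matching aldehyde or ketone through NAD or NADP, and aldehyde dehydrogenases carry the aldehyde on to an acid. In *Drosophila*, *Adh* belongs to the short-chain dehydrogenase family and is best known for oxidising the ethanol of fermenting fruit to acetaldehyde, which the mitochondrial enzyme made by *Aldh* turns into acetate. *Fdh*, a medium-chain enzyme, clears formaldehyde bound to glutathione. *sni* (sniffer) encodes a carbonyl reductase needed for neuronal survival under oxidative stress, and *Pdh* encodes a retinal pigment cell dehydrogenase that works on the visual retinoids. *CG31809* and *CG31810* are short-chain dehydrogenase genes without an assigned substrate. Both odorants carry carbonyl groups, 2,3-butanedione as a diketone and cyclohexanone as a cyclic ketone.

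Library totals ranged from 21194086 to 38621924 reads assigned to genes. Of the 8 genes, 7 had reads and 6 passed the low-count filter of 1 CPM (1 count in 1000000 reads assigned to genes) in 15 of 30 libraries, which left 9240 genes tested. *CG31810* (15 to 69 reads per library) did not pass and was fitted only without the filter. *Adhr* had 0 reads in all 30 libraries. In the release 6 gene models, *Adh* and *Adhr* both span 2L:14615552-14618902 on the plus strand, all 2116 exon bases of *Adhr* are also exon bases of *Adh*, and only 138 of the 2254 exon bases of *Adh* belong to it alone. Those 138 bases (2L:14616129-14616266) are noncoding, sit in 1 of 5 annotated *Adh* transcripts and fall in an intron of the other transcripts that start at the upstream promoter. Absence of reads was general for such genes. Of 297 protein-coding genes with no exon base of their own on their strand, 289 (97.3%) had no read in any library, against 380 (2.84%) of 13384 genes with at least 1 base of their own. The 122 to 394 *Adh* reads per library are read here as counts of that noncoding stretch, and the level of *Adh* mRNA as a whole and of *Adhr* was not measured. *Pdh* (3L:16353233-16354297) shares 409 of 945 exon bases with genes on the opposite strand, and *sni* (X:8241501-8244016) shares 435 of 1761 with *Trxr1*. No exon base of *Fdh* (3R:10870906-10872381), *Aldh* (2L:9387389-9391567), *CG31809* or *CG31810* is shared.

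The measured genes differed widely in level. Per kilobase of unshared exon, *Pdh* was the most abundant, with 1855 CPM per kb as the mean of 15 lines, above 99.8% of the genes tested. *Aldh* followed with 433 CPM per kb and *Fdh* with 123. *sni* stood at 17.0 CPM per kb, close to the median of 12.8 over 9102 genes tested. *CG31809* had 5.36 CPM per kb, above 23.9% of the genes tested, and *CG31810* 0.894, above 3.36% of them. The 138-base stretch of *Adh* gave 55.1 CPM per kb, a level of that stretch and not of the mRNA. Spread over lines also differed. The coefficient of variation of 15 line means was 6.20% for *sni*, against a median of 8.22% over all genes tested. It was 41.5% for *CG31809*, a description only, since it includes the BUT and control lines whose differences chose the gene.

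**Figure D1:**
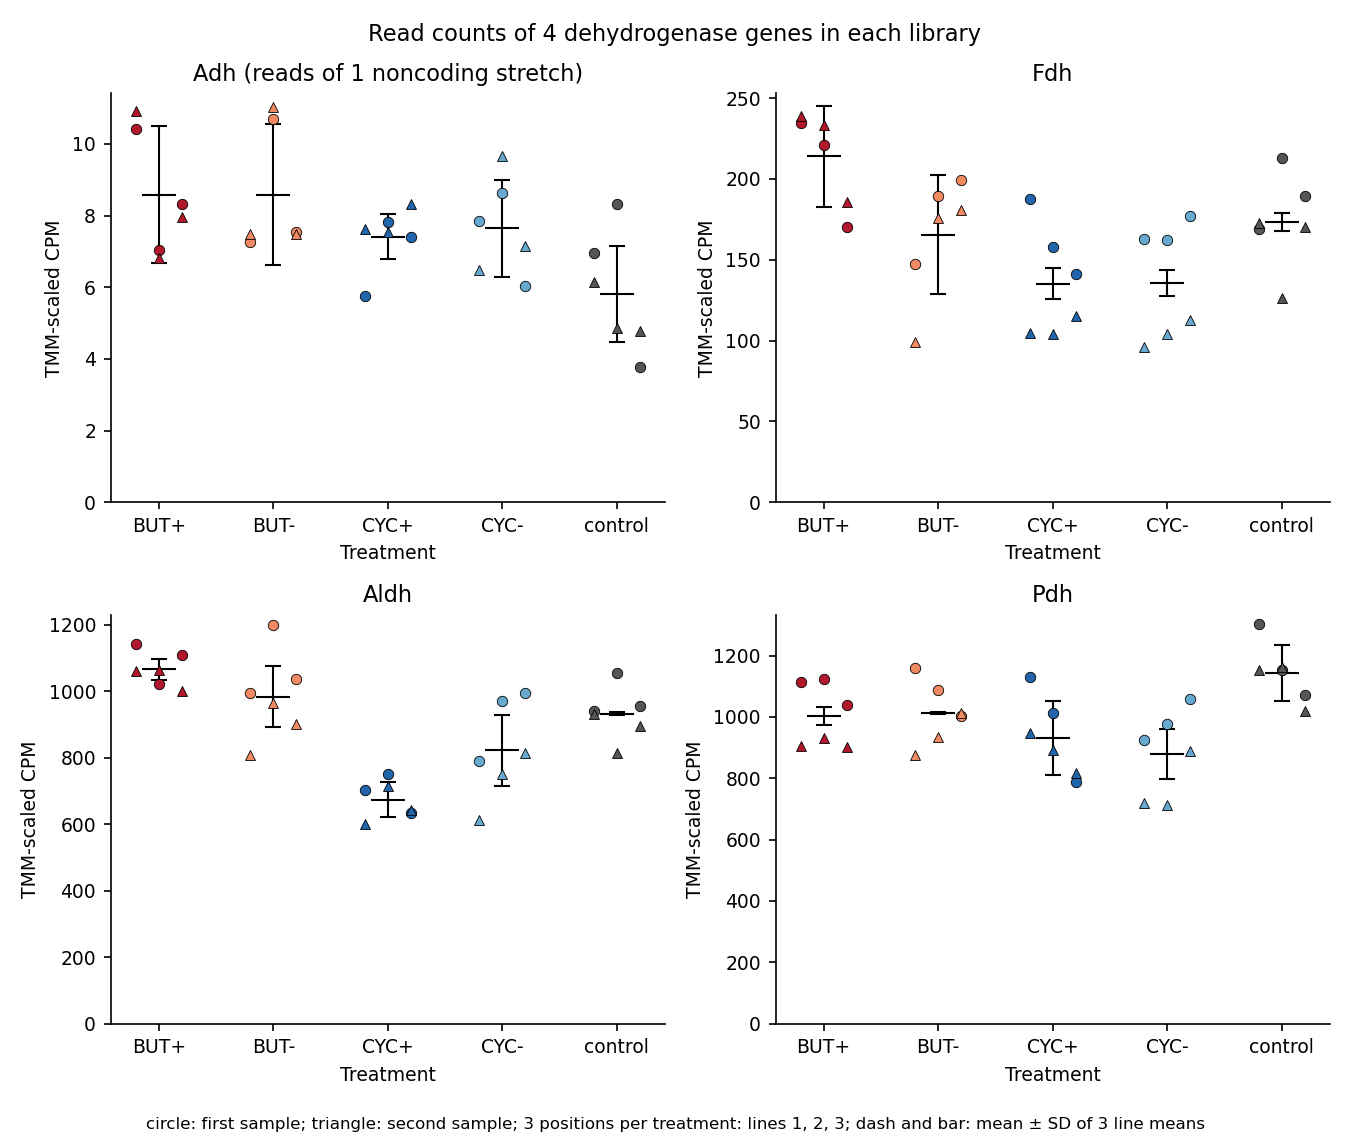
TMM-scaled CPM (vertical axis, from 0) of *Adh*, *Fdh*, *Aldh* and *Pdh* in each of 30 libraries by treatment (horizontal axis), with the mean ± SD of 3 line means. *Adh* was lowest in control and *Aldh* lowest in CYC+, where the treatment mean was 674 CPM against 932 in control, and *Fdh* second samples lay below first samples in all 6 CYC lines.

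*Adh* reads were more frequent in the selected lines than in the control lines. The control lines had 6.56, 6.59 and 4.27 CPM (mean 5.81 ± 1.33, SD, n = 3 lines). The BUT+ lines had 10.7, 6.93 and 8.14 CPM (8.58 ± 1.91) and the BUT- lines 7.38, 10.9 and 7.51 (8.59 ± 1.98). Every butanedione line was above every control line, and in each of these treatments 1 line stood well above the other two. The CYC+ lines had 6.69, 7.68 and 7.87 CPM (7.41 ± 0.632) and the CYC- lines 7.17, 9.15 and 6.59 (7.64 ± 1.34). These line means also all lay above those of control, and CYC- line 3 and control line 2 were nearly equal at 6.59 CPM. In edgeR's quasi-likelihood test *Adh* was higher than in control by 0.57 on the log2 scale in BUT+ (SE 0.16, 1.49-fold, adjusted p = 0.0737) and by 0.57 in BUT- (SE 0.16, adjusted p = 0.0597). The differences from control of 0.36 in CYC+ (adjusted p = 0.211) and 0.41 in CYC- (adjusted p = 0.229) did not pass the threshold of 0.1. Over the mean of all 4 selected treatments *Adh* was higher by 0.48 (SE 0.13, adjusted p = 0.0493). BUT+ and BUT- did not separate (8.58 against 8.59 CPM, 95% interval of the log2 difference -0.31 to 0.31). This interval counts both pools of a line as separate samples and so leaves out much of the spread between lines. With single lines left out the difference ran from -0.19 to 0.20. The *Adh* calls rested on few lines. The BUT+ call was lost without BUT+ line 1 (adjusted p = 0.408), BUT+ line 3 (0.119), control line 1 (0.130) or control line 3 (0.321), and the BUT- call without BUT- line 2 (0.358), control line 1 (0.124) or control line 3 (0.221). The call over all selected treatments was lost without control line 1 (0.111) or control line 3 (0.355). When both libraries of a line were added up, the 3 calls were lost (adjusted p = 0.267, 0.219 and 0.210).

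*Aldh*, the acetaldehyde-oxidising enzyme, was lower in CYC+ heads than in control heads. The control lines had 936, 935 and 927 CPM (932 ± 4.78, SD, n = 3 lines). The CYC+ lines had 651, 734 and 638 CPM (674 ± 51.8), with 6 of 6 libraries below all 6 control libraries. The CYC- lines were intermediate and their means more scattered, with 701, 861 and 904 CPM (822 ± 107). Single libraries of CYC- (613 to 995 CPM) overlapped those of control, which ran from 815 to 1054 CPM despite the close control line means. The BUT+ lines had 1102, 1043 and 1055 CPM (1067 ± 31.2) and the BUT- lines 902, 1082 and 969 (984 ± 91.2). In order of treatment means, BUT+ and BUT- had overlapping lines, as had BUT- and control and CYC- and CYC+, while CYC- lay below control without overlap of lines. *Aldh* fell by 0.47 on the log2 scale in CYC+ against control (SE 0.09, edgeR adjusted p = 0.00636), to 0.723 of the control level. This was the only call among the 8 genes of the set that stayed in all 13 other settings and with each of 15 lines left out, with adjusted p between 0.000222 and 0.0604. Against CYC-, *Aldh* was lower in CYC+ by 0.29 (SE 0.09), which did not pass in the edgeR fit (adjusted p = 0.155) and did pass with DESeq2 (adjusted p = 0.0880), without CYC+ line 2 (0.0831) and without CYC- line 1 (0.0486). BUT+ and control differed by 0.19 (SE 0.09, adjusted p = 0.338). The difference between the attraction and repulsion contrasts of the 2 odorants was 0.40 (SE 0.13, adjusted p = 0.269, and 0.0731 without CYC- line 1).

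*Fdh* followed a similar order of treatments with wider spread. The BUT+ lines had 237, 227 and 178 CPM (214 ± 31.4, SD, n = 3 lines) and the BUT- lines 123, 183 and 190 (165 ± 36.8). The CYC+ lines had 146, 131 and 128 CPM (135 ± 9.68), the CYC- lines 129, 133 and 145 (136 ± 8.09) and the control lines 171, 169 and 180 (173 ± 5.63). All 6 cyclohexanone lines were below all 3 control lines. The differences from control were -0.36 in CYC+ (SE 0.17, adjusted p = 0.240) and -0.35 in CYC- (SE 0.17, adjusted p = 0.345) on the log2 scale, and none of the 6 pairwise comparisons of *Fdh* was called. BUT+ and BUT- differed by 0.37 (95% interval 0.03 to 0.71, adjusted p = 0.474). Part of this spread lay within lines. In CYC lines the second sample had a lower *Fdh* CPM than the first in 6 of 6 lines, at 0.560 to 0.817 of the first (median 0.640), in BUT lines it was lower in 3 of 6 (median 0.973), and in control lines in 2 of 3, with control line 2 at 0.594. *Aldh* second samples were lower in 5 of 6 BUT, 5 of 6 CYC and 3 of 3 control lines, and those of *Pdh* in 5, 5 and 2, so lower second samples were not found in *Fdh* or the CYC lines alone. Among the second samples alone the CYC lines ranged from 96.2 to 115 CPM, and the first samples from 141 to 187. The second CYC samples were also the more deeply read, with a median total of 36594600 against 25941400 reads, except in CYC- line 2. There the first sample had 38621924 reads and the second 36040612, and the second was at 0.642 of the first for *Fdh*. The part of depth or collection in the lower second samples was not tested.

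The summed level of fat body marker genes had an order of treatments like that of *Aldh*. The fat body lines the head capsule and is rich in metabolic enzymes, and bulk heads cannot separate fewer cells of a type from less RNA per cell. The summed level of 10 fat body markers, which include the yolk protein genes and *Lsp2*, had a median over libraries of 92836 CPM in BUT+ (85196 to 111204), 78963 in BUT- (34417 to 101661), 55977 in control (50438 to 84071), 52115 in CYC- (25411 to 76373) and 36006 in CYC+ (23631 to 46923). The sum was thus highest and lowest in the treatments where *Aldh* was highest and lowest. The yolk protein genes *Yp1*, *Yp2* and *Yp3* made up 71.4% to 88.7% of it per library, so it is mainly a level of those 3 genes. Of the 8 markers tested, 2 (*Yp1* and *Yp2*) were called lower in CYC+ than in control and none in the other 5 pairwise comparisons, and the median log2 fold change of the list in CYC+ against control was -0.74. The tested markers differed in the size of that change. *Lsp2* was at -1.50 (edgeR adjusted p = 0.438), with 0 to 60.7 CPM per library. *Yp3* was at -0.92, *Yp2* at -0.91, *Yp1* at -0.88, *apolpp* at -0.60 and *to* at -0.34. *FASN1*, a fatty acid synthase gene, was at -0.14 (adjusted p = 0.636). Only *Lsp1gamma*, a larval serum protein gene, was higher, at 0.27 (adjusted p = 0.848), and it had just 0.0706 to 7.75 CPM per library. None of the 10 was without reads. Over 15 line means, log2 CPM of *Aldh* and of the fat body sum had a Pearson r of 0.919, and *Fdh* 0.842, compared with 0.216 for *Adh*, 0.347 for *sni*, 0.432 for *Pdh* and -0.26 for *CG31809*. The points share libraries and treatments, so these are descriptions, and the part of the fat body in the *Aldh* difference was not tested. Midgut marker genes, present at a summed 9.30 to 451 CPM, had a median log2 fold change against control of -2.55 in CYC+, where 3 of 7 tested genes were called lower, and of -1.60 in BUT+, where none was. Their summed level was 9.30 to 84.4 CPM in CYC+, 31.5 to 135 in BUT+ and 83.3 to 421 in control. Neuronal, glial, antennal and muscle markers were all present, and the medians of these lists stayed between -0.13 and 0.13 in the 6 pairwise comparisons, with 4 gene calls in all: 1 glial gene lower in BUT+ and 1 in BUT-, and 1 antennal gene lower in CYC+ and 1 in CYC-, each against control. Ovary markers summed to at most 12.9 CPM and male markers to at most 5.66 CPM in any library, with 1 male marker called lower in BUT+ and 1 in BUT- than in control. Beside these counts of marker calls, the share called against control over all genes tested was 2.99% in BUT+, 4.70% in BUT-, 7.02% in CYC+ and 3.74% in CYC-.

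**Figure D2:**
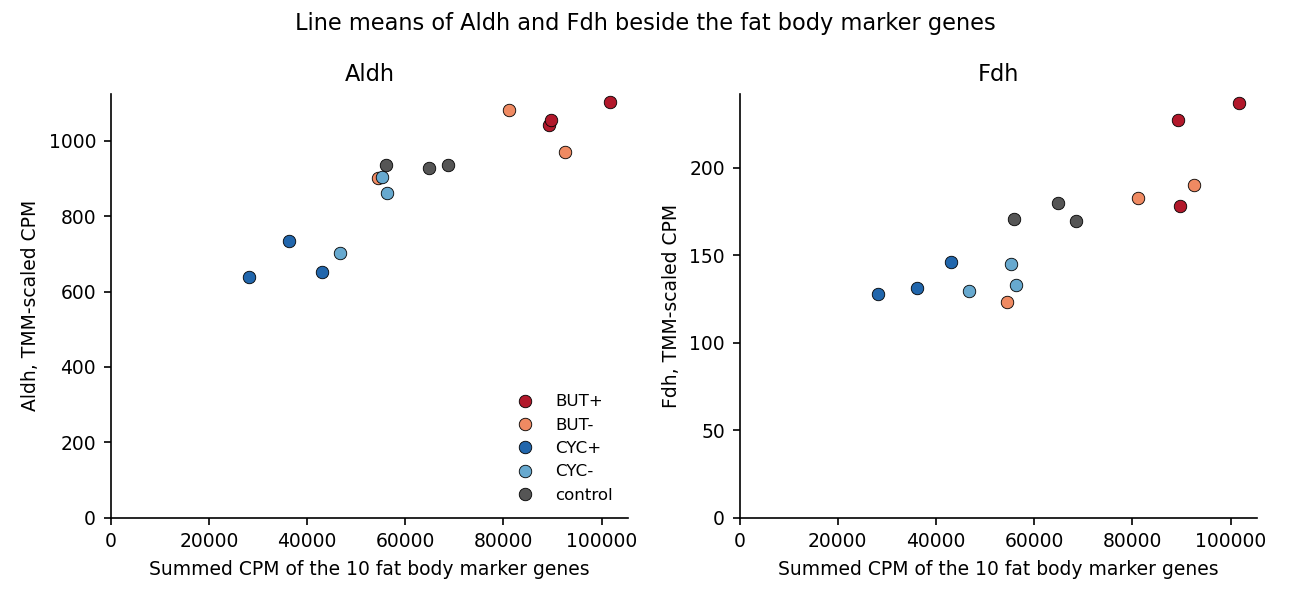
Line means of *Aldh* (left) and *Fdh* (right) in TMM-scaled CPM (vertical axes) against the summed CPM of 10 fat body marker genes (horizontal axes), 15 lines coloured by treatment. The 3 CYC+ lines sit at the lower left and the 3 BUT+ lines at the upper right of the *Aldh* panel, with a Pearson r of 0.919.

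*Pdh*, the retinal pigment cell gene, was lower in the cyclohexanone lines. The control lines had 1229, 1158 and 1046 CPM (1144 ± 92.1, SD, n = 3 lines). The CYC+ lines had 1040, 953 and 803 CPM (932 ± 120) and the CYC- lines 822, 845 and 974 (880 ± 81.7). Each CYC line was below each control line, with CYC+ line 1 and control line 3 nearly equal. *Pdh* fell by 0.30 on the log2 scale in CYC+ (SE 0.10, edgeR adjusted p = 0.0876) and by 0.38 in CYC- (SE 0.10, adjusted p = 0.0454). The BUT+ lines (1009, 1027 and 971 CPM) and the BUT- lines (1018, 1012 and 1009 CPM) lay between, at -0.19 and -0.18 against control (adjusted p = 0.374 and 0.385), again without overlap with the control lines. Over the 4 selected treatments the gene fell by 0.26 (SE 0.08, adjusted p = 0.0675). CYC+ and CYC- differed by 0.08 (95% interval -0.11 to 0.28), and BUT+ and BUT- by -0.01 (-0.21 to 0.18). The CYC+ call was lost without any 1 of 8 of the 15 lines, at most at an adjusted p of 0.300 without CYC+ line 3, and the other lines were BUT+ line 2 (0.104), BUT+ line 3 (0.106), BUT- line 2 (0.104), BUT- line 3 (0.109), CYC+ line 2 (0.103), control line 1 (0.261) and control line 2 (0.158). The CYC- call was lost without CYC- line 1 (0.151), CYC- line 2 (0.129), control line 1 (0.171) or control line 2 (0.111), and the call over all selected treatments without control line 1 (0.407) or control line 2 (0.169). These 3 calls too were lost when the libraries of a line were added up (adjusted p = 0.128, 0.111 and 0.137). The part of pigment cells in the *Pdh* difference was not tested. Photoreceptor and eye markers, mainly photoreceptor genes, did not move with *Pdh* as a list. The median log2 fold change of 15 of these genes was 0.06 in CYC+ and -0.06 in CYC- against control. Of the 15, 2 were called higher in CYC+ (background 7.02% of all genes tested) and 2 higher and 1 lower in CYC- (3.74%). Their summed level spanned 57223 to 76683 CPM in control and 58923 to 77127 in the cyclohexanone libraries.

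*sni*, the carbonyl reductase of the nervous system, gave the flattest profile. Treatment means ran from 21.8 CPM in CYC- to 23.6 in BUT+, and the 15 line means from 19.6 to 24.8, a 1.26-fold span against a median of 1.34-fold over all genes tested. None of 8 comparisons was called for *sni*. The largest difference, BUT+ over control, was 0.10 on the log2 scale with a 95% interval from -0.06 to 0.25, so changes beyond about that interval were not seen at this depth of 456 to 931 reads per library.

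*CG31809* and *CG31810* lie in tandem on the minus strand of chromosome 2L with *CG13284*, also a short-chain dehydrogenase gene. *CG13284* spans 2L:16842300-16848716, *CG31810* 2L:16849018-16852368 and *CG31809* 2L:16853620-16858714, and none of the 3 shares an exon base with another gene. *CG31809* was most abundant in the control lines, with 13.6, 11.1 and 10.4 CPM (11.7 ± 1.72, SD, n = 3 lines). It was lowest in BUT+, with 4.97, 4.95 and 2.70 CPM (4.21 ± 1.30), and the BUT- lines had 6.58, 6.27 and 9.18 (7.34 ± 1.60). No library of BUT+ overlapped a control library. The cyclohexanone lines, which the choice of the gene did not use, had 7.22, 5.93 and 9.52 CPM in CYC+ (7.56 ± 1.82) and 4.78, 5.85 and 4.48 in CYC- (5.04 ± 0.721). Every one of the 12 selected lines was below every control line. This is a description only, since the BUT and control lines chose the gene and the CYC lines are set against those same control lines. Over all genes tested, lines of a selected treatment did not overlap control lines for 16.3% to 18.5% per comparison. The highest and lowest line means of *CG31809* (control line 1 and BUT+ line 3) were 5.04-fold apart. In treatment order the means ran control, CYC+, BUT-, CYC-, BUT+, with overlapping lines between CYC+ and BUT- and between CYC- and BUT+.

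Without a test, the log2 differences of *CG31809* from control were -1.48 in BUT+ and -0.67 in BUT-, and BUT+ and BUT- differed by -0.81. These are the values that chose the gene. Against the same control libraries, CYC+ differed by -0.63 and CYC- by -1.22. Only CYC+ against CYC- used no library that entered the choice. There *CG31809* was higher in CYC+ by 0.59 on the log2 scale (SE 0.20, 95% interval 0.19 to 0.98), the line means did not overlap, and the edgeR adjusted p of 0.169 did not pass. Without CYC+ line 2 the adjusted p was 0.0791, with DESeq2 0.105, and with the libraries of each line summed 0.471. The attraction lines were therefore the lower of the pair for 2,3-butanedione and, without a call, the higher of the pair for cyclohexanone.

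**Figure D3:**
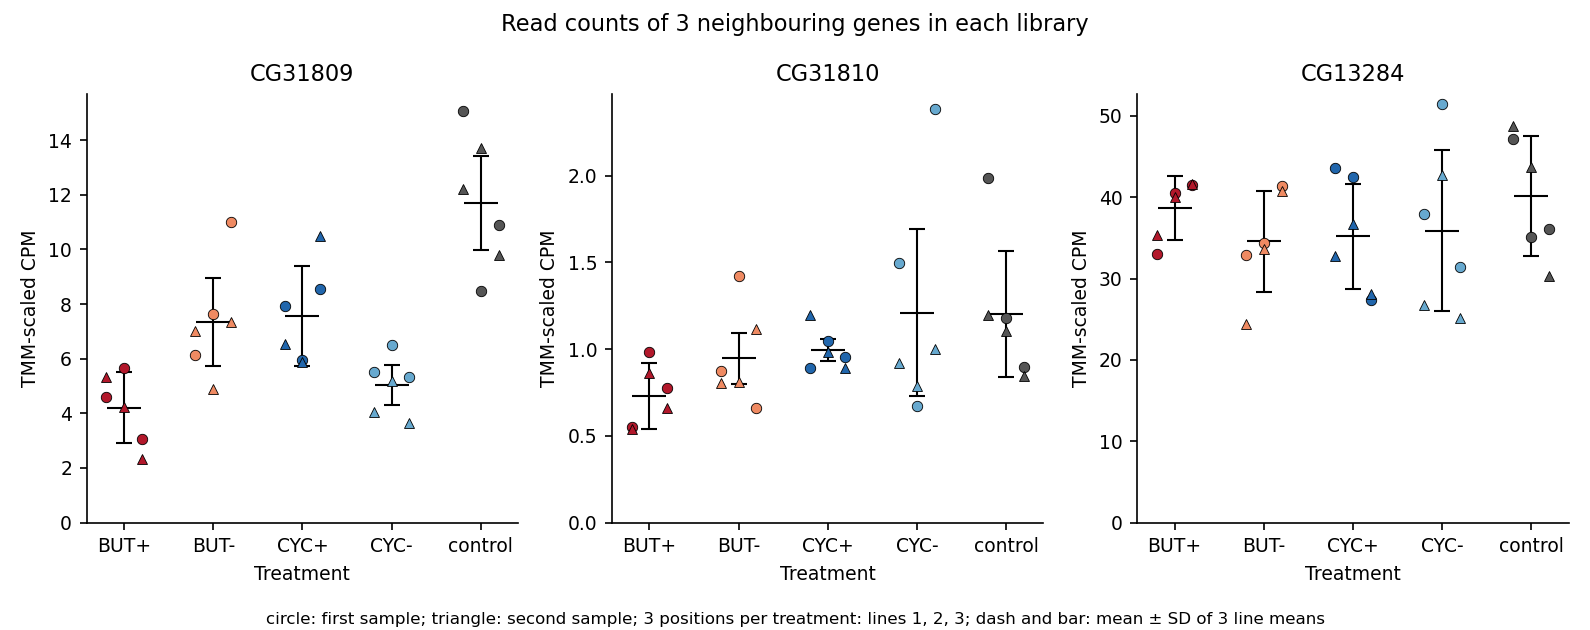
TMM-scaled CPM (vertical axes, from 0) of the adjacent genes *CG31809*, *CG31810* and *CG13284* in each library by treatment, with the mean ± SD of 3 line means. *CG31809* ran from 4.21 CPM in BUT+ to 11.7 in control, the treatments whose difference chose it. *CG13284*, not chosen on its values, stayed between 34.6 and 40.2 CPM in treatment means.

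The neighbours of *CG31809* had narrower ranges of line means than its 5.04-fold. That span runs from a BUT+ line to a control line, whose differences chose the gene, so the contrast is a description only. Their line means spanned 3.10-fold for *CG31810*, at few reads, and 1.73-fold for *CG13284*, against a median of 1.34-fold over all genes tested. *CG31810* had treatment means of 0.729 CPM in BUT+, 0.948 in BUT-, 0.994 in CYC+, 1.21 in CYC- and 1.20 in control, with lines of all treatments overlapping those of control. In the fit without the low-count filter its difference from control was -0.71 in BUT+ (SE 0.26, adjusted p = 0.237), and the other 5 pairwise comparisons had adjusted p of 0.626 or more. In CYC- the treatment means of the 2 genes stood apart, with *CG31809* at 5.04 CPM against 11.7 in control and *CG31810* at 1.21 against 1.20. The *CG31810* mean was raised by CYC- line 3 sample 1, at 2.38 CPM from 69 reads. By the median of libraries *CG31810* was at 0.963 CPM in CYC- against 1.14 in control, so its few reads do not settle whether the genes differ there. *CG13284* had 38.7 CPM in BUT+, 34.6 in BUT-, 35.2 in CYC+, 35.9 in CYC- and 40.2 in control, and none of its comparisons was called, the difference from control being at most -0.22 (SE 0.16, adjusted p = 0.524, BUT-).

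Counts of calls among the dehydrogenase genes were small in every comparison, and they were read against the share called over all 9240 genes. Of the 5 tested genes other than *CG31809*, 1 was called in BUT+ against control (*Adh*, background 2.99%) and 1 in BUT- against control (*Adh*, 4.70%). In CYC+ against control 2 were called (*Aldh* and *Pdh*, background 7.02%), and in CYC- against control 1 (*Pdh*, 3.74%). No gene of the 5 was called in BUT+ against BUT- (background 0.660%) or CYC+ against CYC- (1.54%) by edgeR, where 1 each had an unadjusted p under 0.05, and DESeq2 called 0 and 1. Over the mean of the selected treatments 2 were called (background 4.38%), and in the difference of differences 0 (background 0.530%, with 1 at an unadjusted p under 0.05 and 0 by DESeq2). Line means without overlap were common over the whole table. They were seen for 3 of the 5 genes in BUT+ against control (background 17.3%), 2 in BUT- against control (16.3%), 0 in BUT+ against BUT- (13.4%), 4 in CYC+ against control (18.5%), 4 in CYC- against control (17.0%) and 0 in CYC+ against CYC- (14.6%). Every one of these separations was between selected and control lines, which all share the same 3 control lines.

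**Figure D4:**
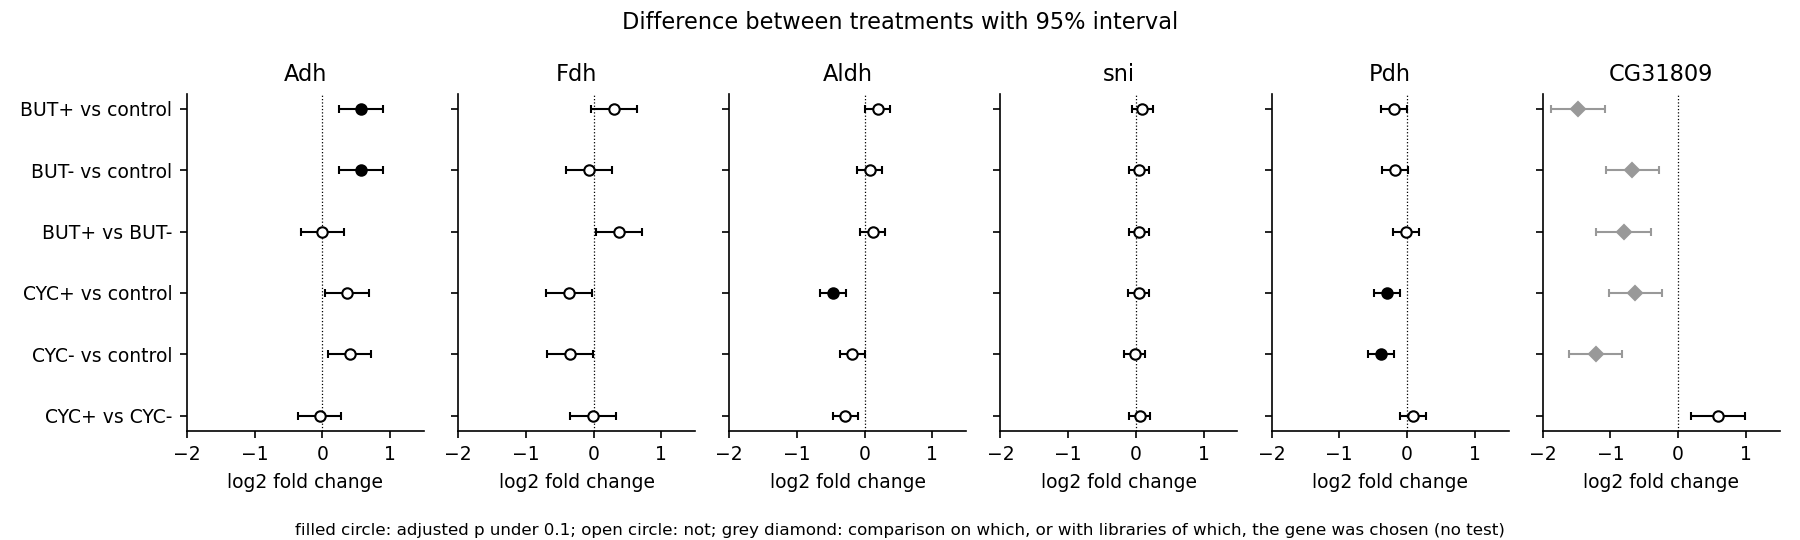
Log2 fold change (horizontal axes) with its 95% interval in the 6 pairwise comparisons (rows) for the 6 genes past the low-count filter. Filled circles passed an adjusted p of 0.1, namely *Adh* in both butanedione treatments, *Aldh* in CYC+ and *Pdh* in both cyclohexanone treatments against control, and grey diamonds mark values of *CG31809* given without a test.

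Replicate lines of one treatment differed for *Adh* alone among the 5 tested genes other than *CG31809*. The edgeR F test over lines within treatments gave F = 4.87 for *Adh* (adjusted p = 0.0355), where 7.99% of all genes were called. The ratio of the second to the first pool of a line for *Adh* was 0.958 to 1.05 in the BUT lines, 0.825 to 1.32 in the CYC lines and 0.585 to 1.27 in the control lines, so the pools lay closer to each other in the BUT lines than elsewhere. No single treatment was called for *Adh* on its own. *CG31809* is given without a test here, since the BUT and control lines that chose it enter the fit. The neighbouring *CG13284* was called by the same F test (adjusted p = 0.0273). *Aldh*, *Fdh*, *Pdh* and *sni* had adjusted p from 0.685 to 0.833, and no difference between lines beyond that between pools was called for them.

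Across the 15 line means, *Fdh* and *Aldh* were the pair most alike among the 6 genes of the set past the low-count filter (Pearson r = 0.805 of log2 CPM). *Fdh* had an r of 0.579 with *sni*, *Aldh* one of 0.518 with *Pdh*, and *Adh* and *CG31809* one of -0.43. Among all genes tested, the patterns most like *CG31809* were those of *Notum*, which encodes a secreted Wnt-inactivating enzyme (r = 0.846), *f* (forked), a bristle actin-bundling protein (0.825), and *Aps* (0.821). For *Adh* they were *Naa15-16*, a subunit of an N-terminal acetyltransferase (0.811), *CG33228* (0.809) and *fand*, a splicing factor (0.775). *teq*, a serine protease gene, was the most like *Aldh* (0.957) and *CG14823* the most like *Fdh* (0.949). *Scsalpha1*, a subunit of succinyl-CoA synthetase, was the most like *sni* (0.908), and *CG9664*, an ABC transporter gene, the most like *Pdh* (0.846). These are descriptions over 15 lines that share treatments, the best of 9240 genes each.

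Other oxidoreductase families gave the surroundings. Lists of other families held 62 further genes, 54 of them tested, from the short-chain dehydrogenases, aldehyde dehydrogenases, aldo-keto reductases and polyol or acetate steps. In BUT+ against control 3 of the 54 were called higher and 0 lower (background 2.99% in either direction), and in BUT- against control 5 higher and 2 lower (4.70%). In CYC+ against control 4 were higher and 4 lower (7.02%), and in CYC- against control 3 higher and 5 lower (3.74%). In BUT+ against BUT- 1 was lower (0.660%), and in CYC+ against CYC- 1 was higher (1.54%). Against control, the median log2 fold change of the 54 was 0.10 in BUT+, 0.02 in BUT-, -0.08 in CYC+ and -0.08 in CYC-, beside medians over all genes tested of -0.01, 0.00, 0.01 and 0.00.

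The smallest adjusted p in these lists belonged to *spidey*, which encodes a very-long-chain ketoacyl reductase and is a characterised relative of *CG31809*. The control lines had 97.6, 102 and 118 CPM (106 ± 10.7, SD, n = 3 lines) and the BUT+ lines 118, 99.2 and 107 (108 ± 9.22). The BUT- lines had 158, 159 and 162 CPM (160 ± 2.38), above every control and BUT+ line, the CYC+ lines 154, 140 and 158 (151 ± 9.76) and the CYC- lines 130, 113 and 165 (136 ± 26.6). *spidey* rose against control by 0.60 on the log2 scale in BUT- (SE 0.09, edgeR adjusted p = 0.000346), by 0.51 in CYC+ (adjusted p = 0.00192) and by 0.36 in CYC- (adjusted p = 0.0318), and was at 0.03 in BUT+ (adjusted p = 0.919). BUT+ was lower than BUT- by 0.56 (adjusted p = 0.00132), and the contrast differed from that of the cyclohexanone pair by -0.71 (SE 0.12, adjusted p = 0.0110). The BUT-, CYC+ and BUT+ against BUT- calls held with each of 15 lines left out. The CYC- call was lost without CYC- line 3 (adjusted p = 0.184), control line 1 (0.140) or control line 2 (0.106). Line sums kept the BUT- and CYC+ calls and not those of CYC- (adjusted p = 0.233) or BUT+ against BUT- (0.170).

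The adjacent X-linked short-chain dehydrogenase genes *CG40485* and *CG40486* were higher in all 4 selected treatments than in control. *CG40485* had 137, 177 and 111 CPM in the control lines (142 ± 32.9, SD, n = 3 lines), and treatment means of 246 ± 21.2 in BUT+, 230 ± 67.8 in BUT-, 224 ± 86.5 in CYC+ and 254 ± 15.8 in CYC-. The log2 differences from control were 0.80, 0.70, 0.66 and 0.84 (adjusted p = 0.0265, 0.0521, 0.0474 and 0.0190). *CG40486* had 31.3 ± 7.03 CPM in control and rose by 0.71, 0.88, 0.62 and 0.98 (adjusted p = 0.0406, 0.00899, 0.0505 and 0.00440). Lines of BUT- and CYC+ overlapped control lines for both genes, while those of BUT+ and CYC- did not. All 4 comparisons share the control lines, so they are not separate observations of a control level. Most of these calls needed single lines. Without control line 1 or control line 3, *CG40485* lost its calls in BUT+ (adjusted p = 0.144 and 0.154), BUT- (0.209 and 0.177) and CYC+ (0.138 and 0.224), and without control line 3 that in CYC- (0.109). It also lost the BUT+ call without BUT+ line 2 (0.103), the BUT- call without BUT- line 1 (0.214) or BUT- line 3 (0.147) and the CYC+ call without CYC+ line 1 (0.356). *CG40486* lost the BUT+ call without control line 1, control line 3 or BUT+ line 2 (0.238, 0.179 and 0.205), the BUT- call without control line 1 (0.109), and the CYC+ call without control line 1, control line 3, CYC+ line 1 or CYC+ line 2 (0.189, 0.204, 0.185 and 0.135). Its CYC- call held with each of the 15 lines left out. With line sums the 8 adjusted p ran from 0.131 to 0.285.

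**Figure D5:**
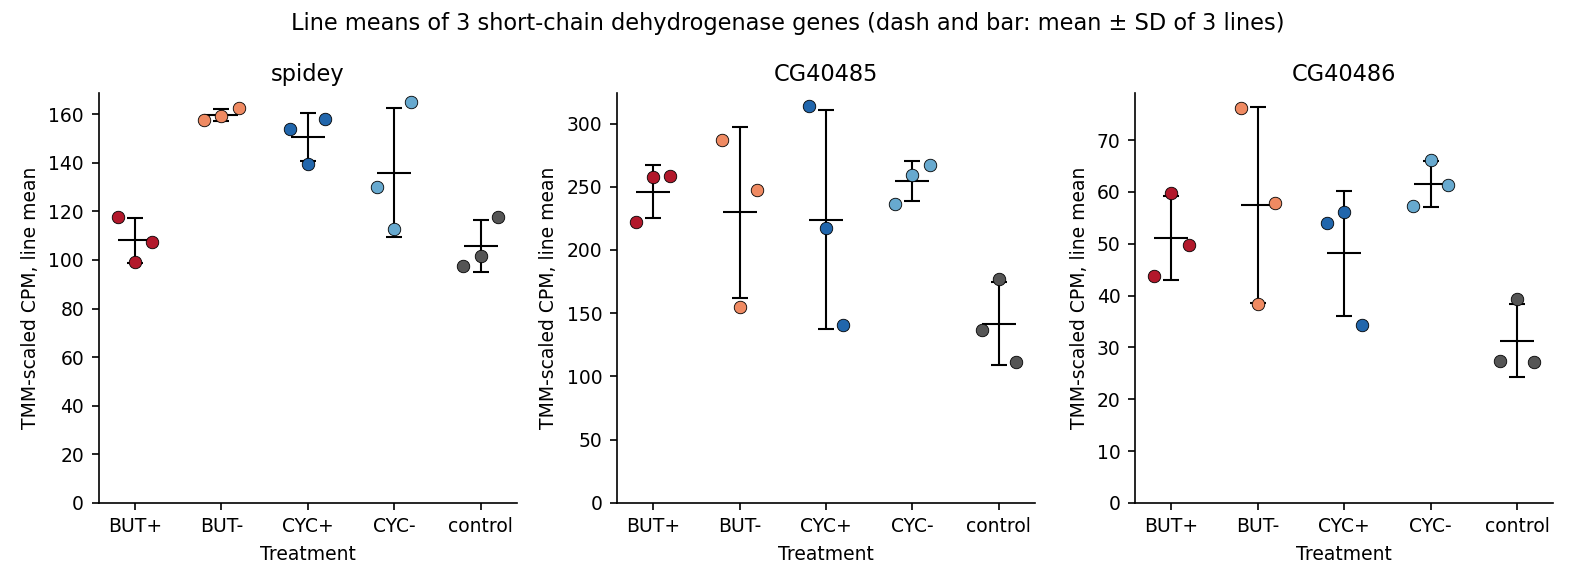
TMM-scaled CPM of *spidey*, *CG40485* and *CG40486* (vertical axes, from 0), 3 line means per treatment with mean ± SD. *spidey* was near 106 CPM in control and BUT+ (108) and 136 to 160 elsewhere, and both X-linked neighbours were lowest in control.

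Changes elsewhere in the lists were smaller or in a single regime. *CG15629* was lower in BUT- than in control by 0.36 (SE 0.07, adjusted p = 0.00836) and higher in CYC+ than in CYC- by 0.39 (adjusted p = 0.0186), with 21.4 ± 0.603 against 16.3 ± 1.57 CPM. *CG3842* fell by 0.22 in CYC+ and by 0.23 in CYC- against control (adjusted p = 0.0331 and 0.0392). Of the aldehyde dehydrogenase family other than *Aldh*, 1 of 7 tested genes was called. It was *CG8665*, a formyltetrahydrofolate dehydrogenase gene, which fell by 0.80 in CYC+ against control (SE 0.22, 39.0 ± 7.91 against 67.9 ± 12.7 CPM, adjusted p = 0.0367). Of 9 aldo-keto reductases, *CG12766* fell by 1.25 in CYC+ and by 1.13 in CYC- (adjusted p = 0.0305 and 0.0648) at 1.03 to 2.44 CPM, and *CG10863* fell by 0.39 in CYC- (adjusted p = 0.0514). Of 8 genes of polyol and acetate steps, the glycerol-phosphate dehydrogenase gene *Gpdh1* rose by 0.42 in BUT+ and 0.45 in BUT- (adjusted p = 0.0762 and 0.0524), and *Pgd*, of the pentose phosphate pathway, by 0.30 in BUT- (adjusted p = 0.0967). With the libraries of a line added up, the call of *CG3842* in CYC+ was kept and the other 10 calls named here were lost (adjusted p = 0.121 to 0.373, the highest for *CG15629* between CYC+ and CYC-). With both libraries of a line kept apart, the call of *CG15629* between CYC+ and CYC- held with each of 15 lines left out, and the others did not. The lines without which a call was lost were control line 1 for *CG15629* in BUT- (adjusted p = 0.124), CYC+ line 3 for *CG3842* in CYC+ (0.101) and CYC- line 1, CYC- line 3 or control line 2 for *CG3842* in CYC- (0.104, 0.134 and 0.123). For *CG8665* they were CYC+ line 1, CYC+ line 3 or control line 3 (0.150, 0.112 and 0.136), and for *CG10863* CYC- line 1, CYC- line 3, control line 2 or control line 3 (0.154, 0.139, 0.129 and 0.122). For *CG12766* they were CYC+ line 3 or control line 1 in CYC+ (0.108 and 0.137) and CYC- line 1, CYC- line 3 or control line 1 in CYC- (0.187, 0.157 and 0.255). For *Gpdh1* they were each BUT+ line or control line 1 in BUT+ (0.157 to 0.426) and BUT- line 2, BUT- line 3 or control line 1 in BUT- (0.181 to 0.351). *Pgd* lost its call without any 1 of 9 lines, namely each butanedione line, CYC- line 2, control line 1 or control line 3 (0.101 to 0.255).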

How the data were processed

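Each library came from a separate pool of female heads. Per the labels and the study's methods, the authors trimmed adapters with Trim Galore, trimmed and filtered reads with cutadapt, aligned them to release 6 of the genome with STAR and deposited raw read counts per gene, not normalized, in 1 table per library. The counting program and its strand setting are not given in the sources used here. Totals ran from 21194086 to 38621924 counts per library, and 1576 of 17471 genes had no read. No intervals on single counts were computed, so the values carry counting error and the spread between lines.

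From these counts, edgeR 4.0.16 (R 4.3.3), a filter of at least 1 CPM in 15 of 30 libraries, pooled lines and the threshold followed the study's methods. The quasi-likelihood test in 1 joint fit of 5 treatment means was chosen here, as the sources name no test within edgeR. The filter left 9240 genes, not the number the study gives. TMM scaling was used, and Benjamini-Hochberg adjustment ran over all genes tested, with calls at an adjusted p under 0.1. The fit treats both pools of a line as separate samples. Lines within treatments were tested in a fit of 15 line means. Levels are TMM-scaled CPM averaged per line, with the SD over 3 lines. The SE of a fold change is its size over the square root of F, and 95% intervals are normal. Alternatives were DESeq2 1.42.0, voom in limma 3.58.1 with a random line effect, RLE size factors, other filters, summed libraries, single samples per line, replicate blocks and each line left out. The fits were also run on simulated counts with planted changes. For the treatment comparisons these counts held no difference between lines, so they do not check the counting of pools as separate samples. Gene positions, exon overlap and exon lengths came from Ensembl annotation release 115 of the same genome release, which is newer than the gene models of the study. Genes named outside the 8 were the 3 with the most similar line means for *Adh* and *CG31809*, the first for the other genes, up to 4 called genes per list by smallest adjusted p, and neighbours. *Yp1*, *Yp2*, *Yp3*, *Lsp2*, *apolpp*, *to*, *FASN1* and *Lsp1gamma* were named after their values were seen. The genes, lists and tests were chosen with earlier results of these data known. Other gene lists of the cell types (neurons, glia, antenna, muscle, ovary and male tissue) served as checks.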

Additional observations from a re-analysis of the deposited data

Results flagged for a closer look

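Among 35 groups of 6 libraries (7 genes with reads in 5 treatments), 2 libraries stood apart from the other 5 of their group by Dixon's 95% criterion, about as many as chance alone gives in that many groups. *Adh* had 5.76 CPM in CYC+ line 1 sample 1, where the other 5 CYC+ libraries had 7.41 to 8.32 CPM. *CG31810* had 1.99 CPM in control line 1 sample 1, where the other 5 control libraries had 0.846 to 1.20 CPM. The difference of differences between regimes was called for none of the 5 tested genes other than *CG31809*.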

How the results depend on the processing

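No call among the 8 genes changed sign under any alternative that was run. *Aldh* in CYC+ against control stayed called throughout, with log2 fold changes from -0.53 to -0.43, and *sni* and *Fdh* were called in none of the settings. The number of the other genes called moved as follows. In BUT+ against control it was 1, with 2 when only the libraries compared were fitted and 0 with summed libraries, first samples, second samples or an adjusted p under 0.05, and 0 to 1 with single lines left out. In BUT- against control it was 1, with 0 under those same 5 settings and 0 to 1 with lines left out. In CYC+ against control it was 2, with 1 without the low-count filter, in the libraries compared, summed libraries, limma, first samples, second samples and an adjusted p under 0.05, and 1 to 2 with lines left out. In CYC- against control it was 1, with 0 in the libraries compared, summed libraries and first samples, and 0 to 1 with lines left out. In CYC+ against CYC- it was 0, with 1 under DESeq2 and under the replicate block of sample number or of line and sample number, and 0 to 1 with lines left out. In BUT+ against BUT- it stayed at 0. Over the selected mean it was 2, with 0 for summed libraries and first samples, 1 with limma and with an adjusted p under 0.05, and 0 to 2 with lines left out. In the difference of differences it was 0, with 1 under the block of line and sample number, and 0 to 1 with lines left out. For lines within treatments it was 1, and 2 with DESeq2.

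The sources used here do not say whether same-numbered lines of different treatments were paired. Their deviations from treatment means had correlations of -0.383 to 0.36 (30 pairs, mean -0.0376), and pairs within a regime were not set apart. The replicate block of line number changed no call of the 5 genes. With that replicate block *Aldh* in CYC+ against control was at -0.47 (adjusted p = 0.00599). Over all genes, calls ranged over the settings other than lines left out from 2 to 589 in BUT+ against control (276 in the fit reported), 2 to 623 in BUT- against control (434), 0 to 166 in BUT+ against BUT- (61), 146 to 955 in CYC+ against control (649), 3 to 553 in CYC- against control (346), 0 to 331 in CYC+ against CYC- (142), 3 to 601 over the selected mean (405), 0 to 111 in the difference of differences (49) and 531 to 1342 for lines (738). With 3 lines per treatment and summed libraries few genes passed, and *CG31810* at 15 to 69 reads per library carried too few reads to resolve small differences. The share of *Adhr* in the *Adh* locus, planned as a description, could not be given because *Adhr* had 0 reads.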
